A study of Mus musculus with 4 samples.

Results

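The 10 genes described here are Notch receptors, ligands and targets: the receptors Notch1, Notch2 and Notch3, the ligands Jag1, Jag2 and Dll1, the DNA-binding factor Rbpj, and the target genes Hes1, Hey1 and Heyl. They were chosen by name for their place in the pathway, with earlier results of these data known. The tables hold 54752 genes, of which 21921 code for proteins. RNA was sequenced from the epidermis of 4 C57BL/6 mouse pups on the day of birth (P0), 2 labelled Skiv2l ctl and 2 labelled Skiv2l fl/fl K14-Cre. In the latter both alleles of Skiv2l, which encodes the RNA helicase of the cytoplasmic SKI complex, are floxed, and Cre is expressed constitutively from the keratin 14 promoter, which is active in keratinocytes. These pups are called knockouts below, and the Skiv2l ctl pups controls. Per the study's methods, Skiv2l ctl covers Skiv2l fl/fl pups, Skiv2l fl/+ pups and Skiv2l fl/+ pups with K14-Cre, and which of these each control pup was is not given, so every control carries at least 1 floxed allele and some may carry a second one or Cre.

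Notch is a receptor that a ligand on a neighbouring cell pulls open. Proteases then release its intracellular part, which enters the nucleus, binds Rbpj and a Mastermind co-activator, and turns on genes of the Hes and Hey families, which encode transcriptional repressors. In the epidermis, Notch signalling is known for driving cells out of the basal layer into the spinous layer, with Hes1 among its targets there, and for its part in the hair follicle.

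Values are FPKM, fragment numbers scaled for transcript length and for the size of the library. Changes are log2 fold changes of FPKM + 1, Skiv2l fl/fl K14-Cre minus Skiv2l ctl, tested with limma across the 13609 protein-coding genes above 0.5 FPKM in at least 1 library. A gene is called at a Benjamini-Hochberg adjusted p under 0.05, and called genes are said to have risen or fallen. Of the 10 members, 9 entered the test and Hey1 stayed under 0.5 FPKM in every library. Errors of means are SD with n = 2 pups. Limma p-values rest on the spread between these few pups, moderated by the spread over all tested genes.

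The libraries held 5.84 to 6.27 aligned gigabases each, as given by dividing coverage by FPKM, and the second knockout library listed the fewest genes above 0.5 FPKM, 16138 against 17384 to 17761 in the others. Skiv2l itself was at 19.3 and 19.1 FPKM in the controls against 10.8 and 8.55 FPKM in the knockouts. It fell to 0.506 of the control mean (log2 fold change -0.92, limma adjusted p = 0.00368). The median of all tested genes lay at -0.20 on the log2 scale with the values as deposited, and at -0.03 after the libraries were brought to a common median, so changes are also given under that median scaling. In whole tissue, fewer cells of a type and less RNA per cell cannot be told apart.

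All 8 keratinocyte markers checked were tested, and their summed level was 30993 and 32179 FPKM in the controls against 28045 and 31015 FPKM in the knockouts. Within that list Krt14, a basal keratin, rose from 1736 and 1812 FPKM to 7381 and 7312 FPKM (log2 fold change 2.05, limma adjusted p = 0.000171). The sum includes that rise, so it does not show the other markers as level. Of the 8, 2 fell, Lor and Krt1, the latter described below. Lor fell from 828 and 867 FPKM to 448 and 444 FPKM (-0.92, limma adjusted p = 0.00109). It was called lower under median scaling too (-0.71, adjusted p = 0.00204). Markers of other cell types moved too. Of 8 hair follicle markers, 5 fell and Krt17 rose, and the sum without Krt17 was 214 and 270 FPKM in the controls against 152 and 146 FPKM. Fibroblast markers summed to 61.3 and 69.0 FPKM against 21.9 and 25.0 FPKM, with 2 of 5 tested genes called lower. Most of that sum was Dcn, and Pdgfra was at 0.299 and 0.250 FPKM against 0.789 and 0.668 FPKM, not called with the deposited values and called higher under median scaling (adjusted p = 0.047). Markers of leukocytes and Langerhans cells summed to 19.2 and 23.1 FPKM against 8.30 and 7.68 FPKM, with 2 of 4 tested genes called lower. Of 6 melanocyte markers, 1 was called higher. Limma called 0 of 4 Merkel cell and 0 of 2 Schwann cell markers tested, with 1 of each lower at an unadjusted p under 0.05. Of 7 endothelial markers, 6 were below 0.5 FPKM in all 4 libraries and Emcn was listed at 0 throughout. These marker counts stand beside 8.99% of all tested genes called higher and 25.4% called lower. What part the marker shifts have in the results below was not tested.

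In brief, Jag1 rose while Jag2 and Rbpj fell, and the other 6 tested members were not called. The count of 1 higher and 2 lower of 9 stands beside a background in which 8.99% of all tested genes were called higher and 25.4% lower. The members' median log2 fold change was -0.23, against -0.20 for all tested genes. Under median scaling 2 members (Jag1 and Notch2) were called higher, where 13.9% of all genes were, and 0 lower, where 11.9% were. At an unadjusted p under 0.05, limma gave 1 lower (Rbpj) under that scaling. After quantile normalization 1 (Jag1) was called higher beside 12.4% of all genes and 1 (Jag2) lower beside 14.1%. Both knockout libraries lay above both controls for 2 of the 9 tested members (18.2% of all genes) and below both for 5 (55.3% of all genes).

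**Figure D1:**
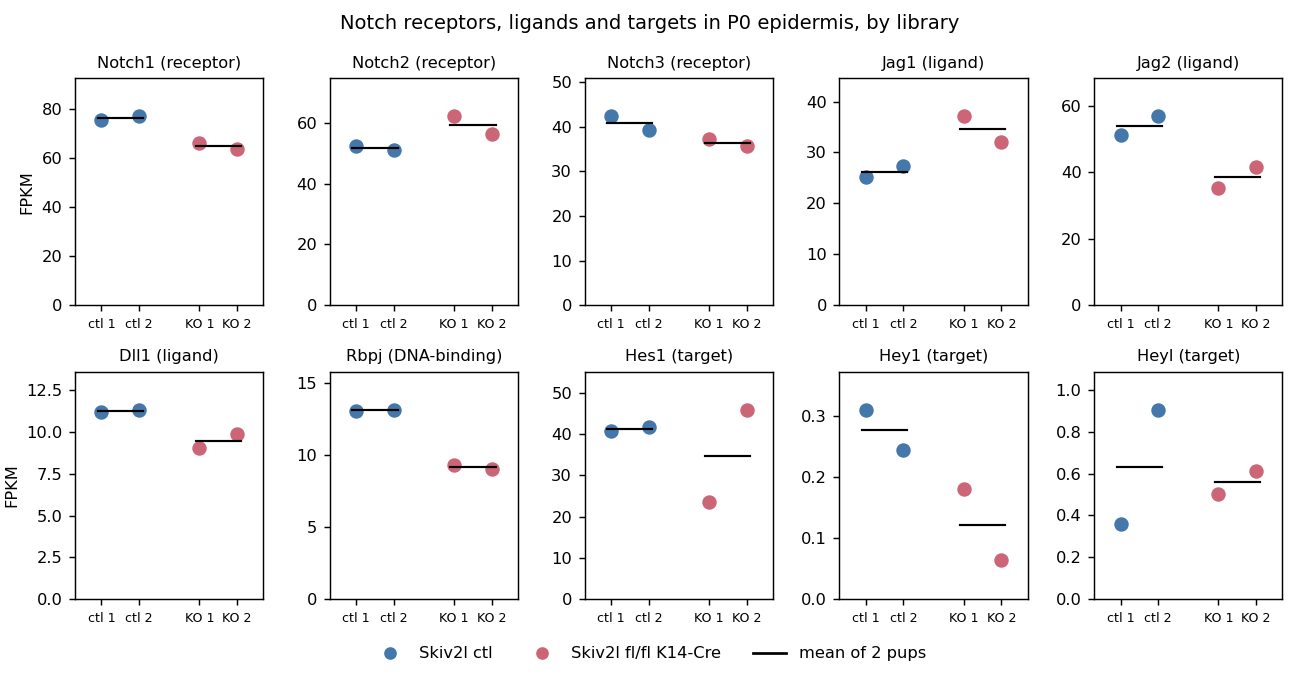
FPKM of each of the 10 genes (vertical axes, each from 0) in the 2 Skiv2l ctl libraries (ctl) and the 2 Skiv2l fl/fl K14-Cre libraries (KO), with black lines at the mean of each genotype. The genotypes are apart for all but Hes1 and Heyl. Among all tested genes both knockouts lie above both controls for 18.2% and below both for 55.3%. For Hes1 the knockouts are far from each other, at 23.5 and 45.9 FPKM.

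Among the receptors, Notch1, which is needed for spinous differentiation in mouse epidermis, was the most abundant member by FPKM. Notch1 (chr2:26457903-26516663, minus strand, GRCm38) was at 75.6 and 77.1 FPKM in the controls against 66.3 and 63.7 FPKM in the knockouts. The genotypes did not overlap, yet the change of -0.23 ± 0.078 (SE, 95% confidence interval -0.42 to -0.04) was not called (limma adjusted p = 0.065). It was -0.02 under median scaling (adjusted p = 0.872), and TPM, which makes each library sum to the same total, gave -0.28 and a call (adjusted p = 0.036).

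Notch2 (chr3:98013527-98150361, plus strand) was higher in both knockouts. It was at 52.5 and 51.1 FPKM in the controls against 62.2 and 56.2 FPKM in the knockouts, again without overlap. The change of 0.19 ± 0.087 (SE) was not called with the values as deposited (limma adjusted p = 0.138) and was called under median scaling, at 0.40 (adjusted p = 0.0183).

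Notch3 (chr17:32120820-32166880, minus strand) is known from the suprabasal epidermis and also from the mural cells of blood vessels. It was at 42.3 and 39.3 FPKM in the controls against 37.2 and 35.7 FPKM in the knockouts. The change of -0.16 ± 0.085 (SE) was not called (limma adjusted p = 0.187), and it turned to 0.05 under median scaling. Mural cell markers were at or near 0 for Pdgfrb (at most 0.0361 FPKM in any library), Rgs5 (at most 0.160 FPKM), Myh11 and Des, 4 of the 7 listed. Summed, the 7 reached 10.8 and 11.9 FPKM in the controls against 20.8 and 12.9 FPKM in the knockouts, and limma called 0 of the 3 tested (1 higher at an unadjusted p under 0.05). Most of the sum came from Cspg4 and, in the first knockout library, from Acta2 at 8.04 FPKM.

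The make-up of the receptor mRNA was compared within each library, where scaling between libraries has no part. Notch2 made up 30.8% and 30.5% of the summed receptor FPKM in the controls against 37.6% and 36.2% in the knockouts, 6.20 percentage points more on average. Notch1 made up 44.3% and 46.0% in the controls against 40.0% and 40.9% in the knockouts. Notch3 made up 24.8% and 23.5% in the controls against 22.5% and 22.9% in the knockouts. The genotypes did not overlap for any of the 3 receptors. The shares are parts of the same sum, so a gain of 1 receptor forces a loss of the others together. By coverage over depth the difference in share was -2.38 percentage points for Notch1 and -3.52 for Notch3, against -4.73 and -1.47 by FPKM. With 2 pups against 2, the smallest p that an exact two-sided permutation test can give is 0.333, and every share and ratio here had that value, so none can pass a threshold of 0.05. The summed receptor FPKM was 170 and 167 in the controls against 166 and 156 in the knockouts.

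The order of Notch1 and Notch2 depended on which deposited measure was read. The ratio of Notch2 to Notch1 by FPKM was 0.695 and 0.663 in the controls against 0.939 and 0.883 in the knockouts, so Notch1 was above Notch2 throughout. By per-base coverage divided by depth, a measure added after the data were seen, the same ratio was 1.23 and 1.24 in the controls against 1.64 and 1.47 in the knockouts, with Notch2 above Notch1 in every library. Both measures had Notch2 higher relative to Notch1 in the knockouts.

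The Jagged ligands, membrane proteins that bind Notch on the next cell, changed in opposite directions. Jag1 (chr2:137081456-137116644, minus strand) was at 25.1 and 27.4 FPKM in the controls against 37.1 and 32.1 FPKM in the knockouts. It rose to 1.32 of the control mean, with a log2 fold change of 0.38 ± 0.10 (SE, 95% confidence interval 0.13 to 0.64, limma adjusted p = 0.035). Median scaling gave 0.59 (adjusted p = 0.00769) and quantile normalization 0.48 (adjusted p = 0.0192). The call was lost without either control library or without the first knockout library, with changes of 0.32, 0.44 and 0.28 and adjusted p-values of 0.193, 0.117 and 0.0873. It was also lost with no filter on level (adjusted p = 0.0674) and without the trend in limma (adjusted p = 0.0588).

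Jag2 (chr12:112907819-112929776, minus strand), a ligand known from the basal layer, was at 51.2 and 56.8 FPKM in the controls. It was at 35.2 and 41.7 FPKM in the knockouts, below both controls. It fell to 0.712 of the control mean, with a log2 fold change of -0.48 ± 0.11 (SE, 95% confidence interval -0.75 to -0.21, limma adjusted p = 0.0208). Quantile normalization kept the call (-0.43, adjusted p = 0.034), and median scaling did not (-0.27, adjusted p = 0.131). Leaving out the first control, the second control or the first knockout library also ended it, at adjusted p = 0.0868, 0.143 and 0.0516, as did testing with no filter (adjusted p = 0.0529).

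Dll1 (chr17:15367354-15376872, minus strand), a Delta-like ligand, was the lowest of these ligands. It was at 11.2 and 11.3 FPKM in the controls against 9.03 and 9.87 FPKM in the knockouts. The genotypes did not overlap and the change of -0.23 ± 0.098 (SE) was not called (limma adjusted p = 0.111), with -0.04 under median scaling.

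Within each library, Jag1 made up 28.7% of the summed ligand FPKM in both controls and 45.6% and 38.4% in the knockouts, an average of 13.3 percentage points more. Jag2 went from 58.5% and 59.5% to 43.3% and 49.8%. Dll1 made up 12.8% and 11.9% in the controls against 11.1% and 11.8%, so the genotypes were apart for all 3 ligands, for Dll1 narrowly. As with the receptors, these shares depend on each other. The ratio of Jag1 to Jag2 was 0.490 and 0.482 in the controls against 1.05 and 0.770 in the knockouts, so Jag1 was above Jag2 in the first of these pups only. On the coverage scale the ratio was 0.775 and 0.774 in the controls against 1.64 and 1.27 in the knockouts, where Jag1 was above Jag2 in both. The exact two-sided permutation test gave its smallest possible p of 0.333 in each case. Summed ligand FPKM was 87.5 and 95.6 in the controls against 81.4 and 83.6.

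**Figure D2:**
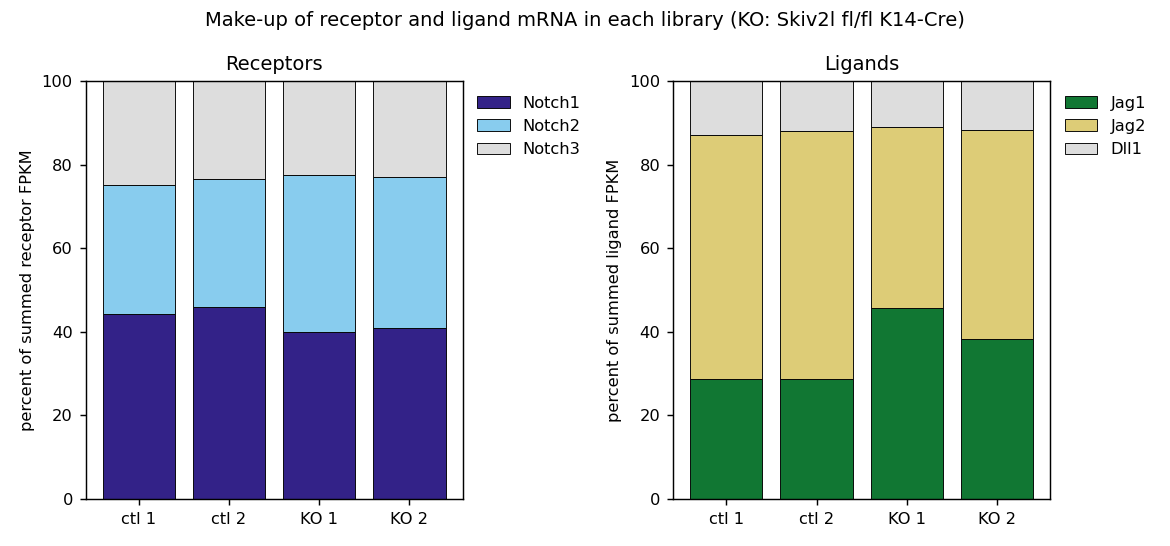
Percent of the summed FPKM of the 3 receptors (left) and of the 3 ligands (right) taken by each gene, 1 stacked bar per library, with ctl for Skiv2l ctl and KO for Skiv2l fl/fl K14-Cre. The Jag1 part is 28.7% in both controls and 45.6% and 38.4% in the knockouts, and the Notch2 part is larger in the latter as well.

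The genes most like each Jagged ligand across the 4 libraries were found by the distance between their log2 values centred on each gene's mean. For Jag1 they were Tmem165 (distance 0.0138), Cnot6l (0.0237) and Sept5 (0.0278). For Jag2 they were Bend5 (0.0176), Erh (0.0272) and Manea (0.0282).

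Rbpj (chr5:53466152-53657362, plus strand) encodes the protein through which all Notch receptors reach DNA. It was at 13.1 FPKM in both controls and at 9.31 and 9.05 FPKM in the knockouts, so its replicates lay close together and the genotypes were apart. It fell to 0.70 of the control mean, with a log2 fold change of -0.47 ± 0.091 (SE, 95% confidence interval -0.69 to -0.25, limma adjusted p = 0.0122). The call was lost under median scaling (-0.28, adjusted p = 0.0722), under quantile normalization (-0.31, adjusted p = 0.051) and without either control library (adjusted p = 0.106 and 0.105). By coverage over depth Rbpj was at 1.10 and 1.17 in the controls against 0.789 and 0.822 in the knockouts. That is 0.708 of the control mean, near the FPKM ratio. The log2 fold change on that scale was -0.24 (limma adjusted p = 0.051), with 1 added as for FPKM. For values near 1 that addition shrinks the change, so -0.24 understates the ratio. The coverage of Rbpj was 0.0844 to 0.0909 of its FPKM, so its place among the other genes by level is uncertain. Of the 75-base stretches in its transcripts, 9% also occur in other genes, mainly the pseudogene Rbpj-ps3.

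**Figure D3:**
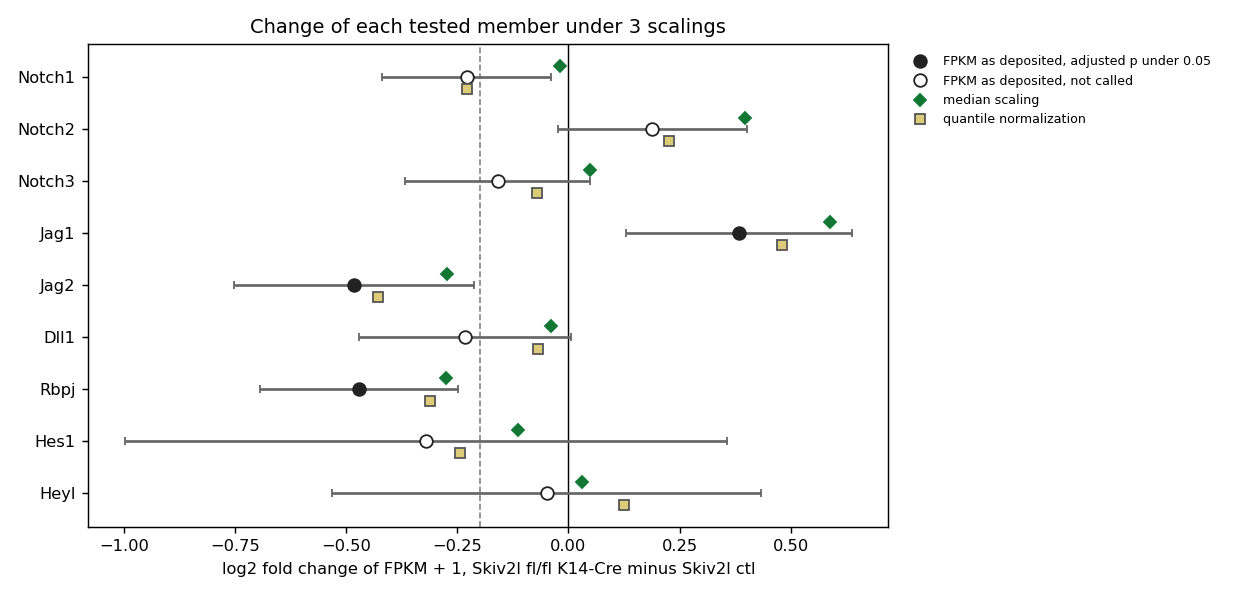
Log2 fold change of FPKM + 1 (horizontal axis) for the 9 tested members. Circles with bars are the deposited FPKM with 95% confidence intervals, filled where called, diamonds are median scaling, squares are quantile normalization, and the dashed line is the median of all tested genes at -0.20. Jag1 lies to the right of 0, and Jag2 and Rbpj to the left, under each of the 3 scalings.

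Sequence upstream of a RefSeq start is shown for Jag1 and Rbpj, called members whose upstream window holds bases outside annotated exons. RefSeq's promoter table on GRCm38.p6 had an entry for 7 of the 10 members, and none was found there for Hes1, Hey1 and Heyl. The whole Jag2 window lies in annotated exons. Capitals mark the core letters of the RBPJ binding motif, TGGGAA, searched on both strands. The Jag1 stretch is 126 bases at chr2:137116645-137116770, minus strand, and the Rbpj stretch is 118 bases at chr5:53590096-53590213, plus strand, both written 5′ to 3′. Annotated exon sequence lies between each stretch and its RefSeq start, at 137116520 for Jag1 and 53590346 for Rbpj. The Rbpj stretch lies inside the gene as the deposited coordinates place it, downstream of their start at 53466152.
Jag1: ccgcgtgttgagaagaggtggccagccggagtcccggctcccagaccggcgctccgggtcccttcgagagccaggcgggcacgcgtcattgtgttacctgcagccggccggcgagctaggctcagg
Rbpj: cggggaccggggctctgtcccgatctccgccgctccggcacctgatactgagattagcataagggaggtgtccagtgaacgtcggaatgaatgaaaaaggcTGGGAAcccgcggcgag

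Over the 250 bases before the start, the core letters were found 2 times in this Rbpj window, 1 time in that of the other RefSeq start of Rbpj, and 0 times in those of Jag1, Jag2, Dll1 and the receptors. They occur in 21.6% of all 32817 RefSeq windows of that length. The other Rbpj start is at 53590486, so the 2 Rbpj windows overlap and may count the same letters. The E-box letters CACGTG, searched because they lie within the sites of Hes and Hey repressors, were in none of the members' windows and in 6.02% of all windows. No other form of such sites was searched, so the windows are not shown to lack them. A match is a description of the letters only.

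Of the targets, Hes1 was abundant and varied between pups, and the Hey genes were barely detected. Hes1 (chr16:30064384-30067796, plus strand), the repressor that keeps early spinous cells in their progenitor-like state, was at 40.9 and 41.8 FPKM in the controls. It was at 23.5 FPKM in the first and 45.9 FPKM in the second knockout pup, one below and one above both controls. The change of -0.32 ± 0.28 (SE, 95% confidence interval -0.999 to 0.36) was not called (limma adjusted p = 0.39). It was 0.15 without the first of these pups (adjusted p = 0.23) and -0.79 without the second (adjusted p = 0.00611), so a single library set both its direction and its call. Coverage over depth showed the same split, at 24.02 and 25.06 in the controls against 13.7 and 27.2. The first of these pups also had the higher Jag1 and the lower Jag2 of the pair, and the higher Acta2. With so few pups, any gene that differs within the pair is higher in either the first or the second. A link of these differences to Hes1 was not tested.

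Hey1 (chr3:8663359-8667256, minus strand) was at 0.310 and 0.245 FPKM in the controls against 0.180 and 0.0643 FPKM in the knockouts, too low to enter the test. The genotypes did not overlap. With no filter on level its change was -0.19 (limma adjusted p = 0.128). Heyl (chr4:123233556-123249875, plus strand), which mural cells are known to express, was at 0.361 and 0.904 FPKM in the controls against 0.504 and 0.611 FPKM in the knockouts. The latter values lie between those of the controls. Its change was -0.05 ± 0.20 (SE, limma adjusted p = 0.864), and it turned to 0.03 under median scaling and 0.13 under quantile normalization.

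By FPKM in the controls, the order of the members was Notch1, Jag2, Notch2, Hes1, Notch3, Jag1, Rbpj, Dll1, Heyl and Hey1, and the neighbours Jag2 and Notch2, and Hes1 and Notch3, overlapped. In the knockouts the order was Notch1, Notch2, Jag2, Notch3, Hes1, Jag1, Dll1, Rbpj, Heyl and Hey1. There each of Jag2, Notch3, Hes1 and Jag1 overlapped its neighbour in that run, and so did Dll1 and Rbpj. FPKM is per transcript length. Coverage over depth ranged from under 0.1 of the FPKM for Rbpj to the same value as the FPKM for Notch3, so an order by coverage differs from these.

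Other annotated genes overlap exons of 4 members, and the strand setting of the counting is not given in the sources used here. Shared 75-base stretches make up 13.7% of those of Dll1 (with A930024N18Rik), 8.77% of Notch1 (with 0610009E02Rik and Gm13568), 4.23% of Notch3 (with Gm17276) and 3.06% of Notch2 (with Gm42820). All but Gm42820 lie on the other strand. The overlapping genes were at 2.26 FPKM or less in every library, against 9.03 FPKM or more for the members they overlap. Jag1, Jag2, Hes1, Hey1 and Heyl share no such stretch.

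The rest of the pathway was described over a list of 51 other genes, of which 41 were tested. The list was chosen by role, also with earlier results of these data known. Of these, 3 rose (Furin, Itch and Rfng), 15 fell and 23 were not called, beside the 8.99% higher and 25.4% lower among all tested genes. Their median log2 fold change was -0.26. The balance of calls depended on the scaling, with 6 higher and 6 lower under median scaling (13.9% and 11.9% of all tested genes) and 4 higher and 8 lower after quantile normalization (12.4% and 14.1% of all tested genes). Both knockout libraries lay above both controls for 6 of the 41, beside 18.2% of all tested genes, and below both for 24, beside 55.3%.

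The glycosyltransferases that tune which ligand a receptor answers to moved in opposite directions. Lfng (lunatic fringe), which adds a sugar to Notch that favours Delta-like over Jagged ligands, was at 18.5 and 22.4 FPKM in the controls against 10.9 and 10.8 FPKM in the knockouts. It fell, with a log2 fold change of -0.85 ± 0.11 (SE, limma adjusted p = 0.00363), and it was called under median scaling (-0.65, adjusted p = 0.00839) and quantile normalization (-0.71, adjusted p = 0.00777). Rfng (radical fringe), of the same enzyme family, rose from 17.0 and 17.5 FPKM to 20.9 and 21.5 FPKM (0.28, limma adjusted p = 0.0454). The ratio of Lfng to Rfng was 1.09 and 1.28 in the controls against 0.523 and 0.502 in the knockouts, with the exact permutation p again at its minimum of 0.333. In all, 1 of the 4 tested glycosylation genes rose and 2 fell, beside 8.99% and 25.4% of all tested genes.

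Among 10 genes of receptor cleavage, 1 rose and 1 fell, beside 8.99% and 25.4% of all tested genes. Furin, the protease that cuts the Notch precursor on its way to the surface, rose from 79.5 and 83.1 FPKM to 125 and 116 FPKM (log2 fold change 0.56, limma adjusted p = 0.00484), and it was called under median scaling too (0.77). Aph1b, a subunit of gamma-secretase, fell from a mean of 4.004 ± 0.418 FPKM to 1.82 ± 0.441 FPKM (SD) (-0.84, limma adjusted p = 0.0107). The surface protease Adam10 was at 22.1 and 21.5 FPKM in the controls against 23.9 and 28.4 FPKM in the knockouts. It was not called with the deposited values (0.24, limma adjusted p = 0.122) and was called higher under median scaling (0.45, adjusted p = 0.0342). Adam17, a related surface protease, was called in neither setting, at -0.03 and 0.18. Under median scaling 3 of the 10 cleavage genes were called higher and 1 lower, beside 13.9% and 11.9% of all tested genes.

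Of the partners of Rbpj, 2 of 3 co-activators and 4 of 7 co-repressors fell, and limma called 0 of either higher (also 0 at an unadjusted p under 0.05). These few genes stand beside the 25.4% of all tested genes called lower. Maml1, a Mastermind co-activator, was at 15.6 and 14.2 FPKM in the controls against 13.98 and 15.91 FPKM in the knockouts, with a change of 0.00. The largest fall of the list on the log2(FPKM + 1) scale was that of Fhl1, a LIM-domain gene with an isoform that binds Rbpj, from 6.98 and 6.90 FPKM to 2.43 and 2.83 FPKM (-1.13, limma adjusted p = 0.00155). Values are per gene, so whether the isoform that binds Rbpj fell is not known. Under median scaling, limma called 0 of the co-activators lower (1 at an unadjusted p under 0.05) and 1 of the co-repressors, Fhl1.

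Of 12 tested genes of ligand endocytosis and receptor trafficking, 1 rose and 6 fell, beside 8.99% and 25.4% of all tested genes. Itch, a ubiquitin ligase that acts on Notch, rose from 15.4 and 15.2 FPKM to 19.4 and 21.4 FPKM (0.39, limma adjusted p = 0.0236). Neurl3, of the Neuralized family of ubiquitin ligases, fell from 1.88 and 2.34 FPKM to 0.596 and 0.758 FPKM (-0.89, limma adjusted p = 0.00739). By ratio of means Neurl3 fell further than Fhl1, to 0.321 against 0.379 of the control. The products of some Deltex genes, not of all, bind the intracellular part of Notch. Of the Deltex genes, Dtx2 fell from 38.7 and 35.6 FPKM to 21.4 and 26.7 FPKM (-0.61, limma adjusted p = 0.0138). Dtx4 fell as well (-0.57, limma adjusted p = 0.0248). Dtx3 and Dtx3l, named after their values were seen, also fell, at -0.56 and -0.46, so that all 4 tested Deltex genes were called lower, beside 25.4% of all tested genes. Under median scaling limma called 0 of these 4 (3 at an unadjusted p under 0.05), with all 4 changes below 0.

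Nrarp, a feedback inhibitor that Notch itself induces, was at 58.6 and 68.6 FPKM in the controls against 49.3 and 56.6 FPKM in the knockouts, and it was not called (-0.26, limma adjusted p = 0.122). Limma called 0 of the 2 tested genes of turnover and feedback (0 also at an unadjusted p under 0.05). Hes5 was at 0.125 and 0.153 FPKM in the controls and listed at 0 in both knockout libraries, under the level needed for the test. With no filter on level it was called lower (-0.19, limma adjusted p = 0.0272). Of the other Hes and Hey genes only Hes6 was tested, and it was not called (-0.40, limma adjusted p = 0.0775). Notch4 and Dll4, known from endothelium, were low. Notch4 was at 0.579 and 0.724 FPKM against 0.361 and 0.170 FPKM (-0.39, limma adjusted p = 0.106), and Dll4 was under 0.15 FPKM in all 4 libraries.

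**Figure D4:**
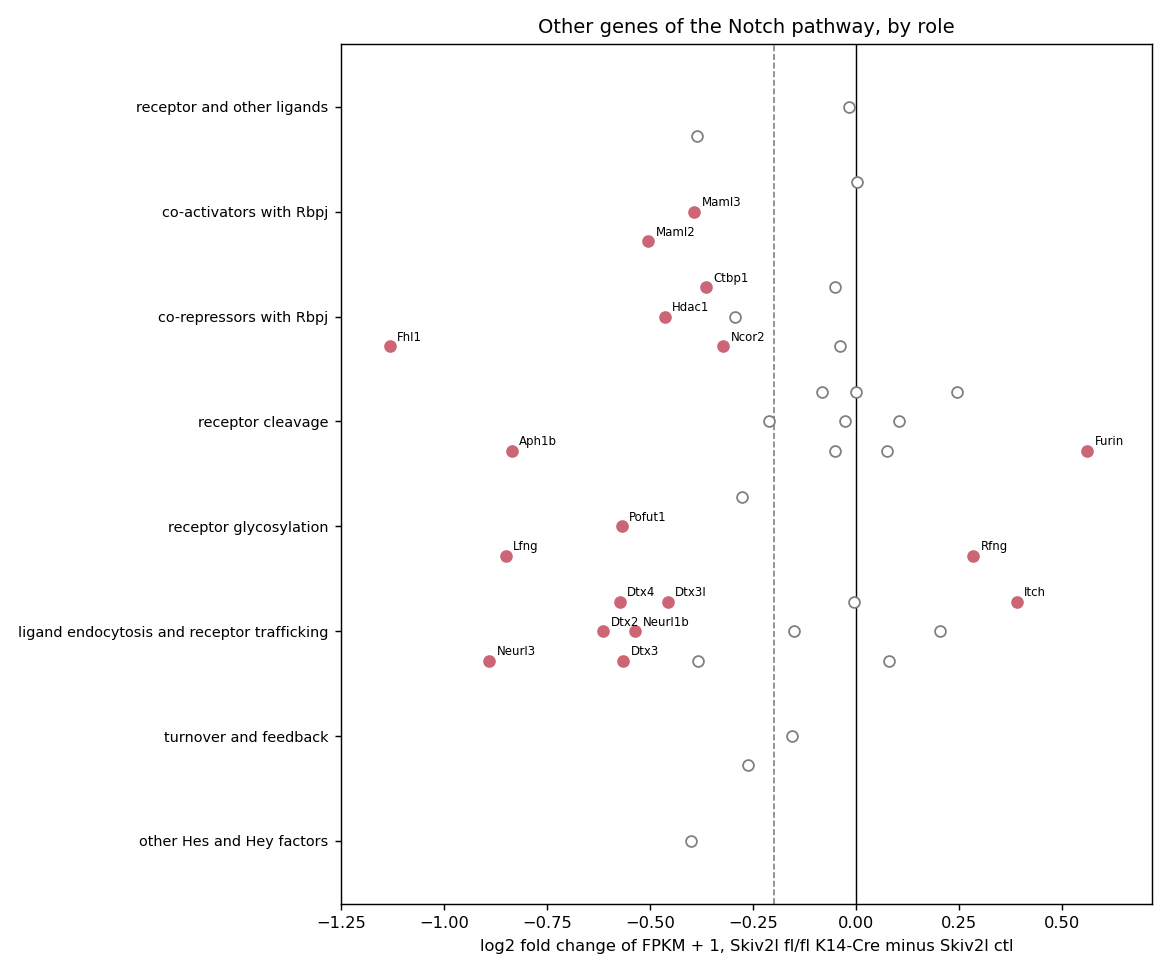
Log2 fold change of FPKM + 1 (horizontal axis) of the 41 tested genes of the wider Notch list, in rows by role, with height within a row spread only for legibility. Filled named points were called and open points were not, and the dashed line is the median of all tested genes at -0.20. Lfng and Rfng lie on opposite sides of 0, and the called Deltex genes lie to the left.

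Genes that mark the layers where Notch acts were read beside the members. The basal genes Krt5 (-0.21, limma adjusted p = 0.13) and Trp63 (-0.08, limma adjusted p = 0.528) were not called, while Krt14 rose as given above. Of the spinous keratins, Krt1 fell from 12721 and 13157 FPKM to 8246 and 9975 FPKM (-0.51, limma adjusted p = 0.0401), and Krt10 was not called (-0.44, limma adjusted p = 0.076). Under median scaling Krt1 was not called either (-0.30, adjusted p = 0.177). After quantile normalization Krt5 (-1.16, limma adjusted p = 0.000213) and Krt10 (-0.71, limma adjusted p = 0.0019) were called lower. Their median-scaled changes were 0.00 and -0.23. Quantile normalization gives genes of equal rank an equal value, so its changes among the most abundant genes follow steps in rank. Krt1 came out level between the genotypes by it and could not be called. Cdkn1a, described as Notch-responsive in keratinocytes, was at -0.19 and not called. Mki67, a marker of cycling cells, fell from 26.9 and 24.4 FPKM to 16.7 and 15.5 FPKM (-0.64, limma adjusted p = 0.00514).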

How the data were processed

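Epidermal RNA of 4 pups at P0 was compared, 2 per genotype, with groups and replicate numbers taken from the sample labels. Per the study's methods, total RNA was sequenced and the reads were run through an institutional workflow. The aligner and strand setting are not given in the sources used here, and the build, per the submitters' processing notes, was GRCm38. In the deposited FPKM values the authors' workflow divided fragments by transcript length and by library size. TPM values, as deposited by the authors, sum to the same total in each library. The coverage signal, as deposited by the authors, is the per-base read depth of a gene. Coordinates matched GENCODE M21 for 54029 of 54752 genes, and its biotypes gave the protein-coding genes.

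Genes above 0.5 FPKM in at least 1 library were tested with limma 3.58.1, run in R 4.3.3 on log2(FPKM + 1). The moderated test had a trend and was two-sided, and p-values were adjusted by Benjamini-Hochberg over all 13609 genes. The script was tested on simulated data. Shares were tested by exact permutation (scipy 1.17.1). Because counts were not used, counting error is not given, and 2 pups per genotype limit the precision. The pups are different animals, and the main test did not pair them by replicate number. Deviations of same-numbered libraries correlated at -0.077, which with 2 pups per genotype cannot settle whether they shared a litter or handling.

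The members and gene lists were chosen with earlier results of these data known. Named are all members, the 6 pathway genes with the largest rise and the 6 with the largest fall among those called (all where fewer), and a few pathway, layer and marker genes listed by role, some of which are not reported here. For Jag1 and Jag2, the members with the largest rise and fall, the 3 nearest genes are named. Dtx3, Dtx3l, Hes6 and single markers with their values were named after the values were seen. The alternatives were a pseudocount of 0.1, FPKM above 1 in at least 2 libraries, no filter, median scaling, TPM, a replicate block, quantile normalization, no trend in eBayes, leaving out each library, and a threshold of 0.1 or a 2-fold minimum. Coverage divided by depth was added after the data were seen.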

Additional observations from a re-analysis of the deposited data

How the results depend on the processing

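With 2 pups per genotype, 1 library can decide a call. No counts were used, so errors come from the spread between pups, which limma moderates over all tested genes. The members called higher (1) became 0 with no filter, without a trend or with a 2-fold minimum, and 2 under median scaling. The members called lower (2) became 1 with no filter, under quantile normalization or by coverage over depth, and 0 under median scaling or with a 2-fold minimum. By coverage over depth the lost call was that of Rbpj, with values near 1 before 1 was added. The other pathway genes called higher (3) became 6 under median scaling and 0 with a 2-fold minimum, and those called lower (15) became 6 under median scaling, 8 under quantile normalization and 1 with a 2-fold minimum. The cause was not tested. The share of all tested genes called is given only for the deposited values, median scaling and quantile normalization. For the other settings, a change in these counts cannot be set against the change over all genes. Leaving 1 library out leaves 1 pup in a group assumed to vary like the other group. Across those fits the change ranged from 0.28 to 0.49 for Jag1, from -0.60 to -0.36 for Jag2 and from -0.49 to -0.45 for Rbpj. Of 13 alternatives each, Jag1, Jag2 and Rbpj kept their call in 8 and lost it in 5, and none of the 3 turned direction. Notch3 turned to 0.048 under median scaling, and Hes1 ranged from -0.79 to 0.15 when a library was left out, the latter without the first Skiv2l fl/fl K14-Cre pup. Heyl turned to 0.031 under median scaling and 0.13 under quantile normalization, and ranged from -0.29 to 0.19, with 0.0012 without the first Skiv2l fl/fl K14-Cre pup, when libraries were left out. By coverage over depth, the difference in share was -2.38 percentage points for Notch1 and -3.52 for Notch3, against -4.73 and -1.47 by FPKM. The replicate block called 1 member higher and 2 lower, and 2 and 14 of the pathway genes, and changed no member's call. Whether pups with the same number share a litter is not given.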
